A study of Mus musculus with 6 samples.

Results

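The enzymes of glucuronidation were followed in mouse liver through 10 genes out of 24411 gene symbols in the count table. They were chosen by name and place in the pathway, without a cut on measured values, but with earlier results of these data known. They comprise the steps that make UDP-glucuronate from UDP-glucose (Ugp2 and Ugdh), the luminal nucleotide diphosphatase Entpd5, and the UDP-glucuronosyltransferase genes Ugt1a6a, Ugt2b1, Ugt2b5, Ugt2b34, Ugt2b35, Ugt2b36 and Ugt3a2. All 10 were present in the table and all 10 passed the filter on low counts, which needs 3 libraries at the minimum of 10. Ugdh had 1 p62+/+ library, at 8 counts, below that minimum, so it passed only with the p62S351E/+ libraries. RNA was sequenced from the livers of 3 wild-type (p62+/+) and 3 p62S351E/+ mice at postnatal day 19, one library per mouse. The p62S351E/+ mice are heterozygous for a prime-edited Sqstm1 allele, the gene of p62, in which a serine that can be phosphorylated is replaced by glutamate, and they descend by in vitro fertilization from 1 chimeric male made with C57BL/6N-derived embryonic stem cells. The allele is present in every tissue, and these mice were growth-retarded, so an effect within the liver and an effect of the animals' condition cannot be told apart here.

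Glucuronidation couples glucuronic acid to bilirubin, steroids, drugs and phenols, which makes them soluble enough to leave the hepatocyte in bile or blood. UGP2 makes UDP-glucose and UGDH oxidizes it to UDP-glucuronate in the cytosol. The sugar nucleotide then enters the endoplasmic reticulum, where the UGT enzymes use it and release UDP, and ENTPD5 cleaves that UDP to UMP. Several genes of this pathway are known targets of the transcription factor NRF2, which the study set out to examine downstream of p62. The study itself reported Ugdh mRNA and UGDH protein as higher in livers of p62S351E/+ mice.

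The authors' values are RSEM-estimated read counts, and most of them fell on 3 genes, Rn45s, Lars2 and Mir6236. The libraries totalled between 8696712 and 10341622 counts, but only between 134911 and 315436 counts lay outside these 3 genes, with p62S351E/+ mouse 1 at the low end. Normalized counts below are counts divided by each library's TMM-scaled size relative to the geometric mean over libraries. The counts of 10 hepatocyte markers such as Alb and Apob summed to between 10928 and 25545 per library. Transcripts of 10 brain markers such as Snap25 summed to between 1210 and 1427 counts in the p62+/+ libraries and to 1372 counts in p62S351E/+ mouse 3, but to 3 and 4 counts in p62S351E/+ mice 1 and 2. The counts of Xist lay between 70.8 and 1505 in the p62+/+ libraries and were 1, 0 and 1537 in p62S351E/+ mice 1, 2 and 3. Summed marker counts of other cells lay between 28 and 97 for bile duct, 33 and 75 for Kupffer cells, 87 and 194 for sinusoidal endothelium, 0 and 4 for intestinal epithelium, and were 0 for kidney tubule in every library. In bulk liver, fewer cells of a type and less RNA per cell cannot be told apart.

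All 10 genes were higher in every p62S351E/+ mouse than in any p62+/+ mouse, and 4 of them, Ugp2, Ugdh, Entpd5 and Ugt2b35, rose past the threshold of an adjusted p below 0.05 and a log2 fold change above 1 (edgeR's quasi-likelihood test, Benjamini-Hochberg over 5945 genes). Over all genes tested, 0.841% were called higher and 0.0841% lower at these thresholds, and 0 of the 10 genes were called lower. Groups without overlap and p62S351E/+ on top occurred in 12.0% of all genes tested. The median log2 fold change of the 10 genes was 1.67, against -0.03 over all genes tested. Their summed counts made up between 0.151% and 0.156% of what remained once Rn45s, Lars2 and Mir6236 were set aside in the p62+/+ livers, and between 0.344% and 0.487% in the p62S351E/+ livers. The absence of overlap depended on the scale for some of the genes. With DESeq2 size factors Ugt2b5 overlapped, while 11.2% of all genes tested had p62S351E/+ on top without overlap. Ugt2b5 and Ugt3a2 overlapped with the counts outside Rn45s, Lars2 and Mir6236 as the scale (8.51% of all genes on top). The same 2 genes overlapped with the summed hepatocyte markers as the scale (2.04%). With library size alone Ugt2b1, Ugt2b5, Ugt2b34, Ugt2b36 and Ugt3a2 overlapped (1.16%). With 3 mice in each group, 0.1 is the lowest two-sided p that exact permutation can reach.

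**Figure D1:**
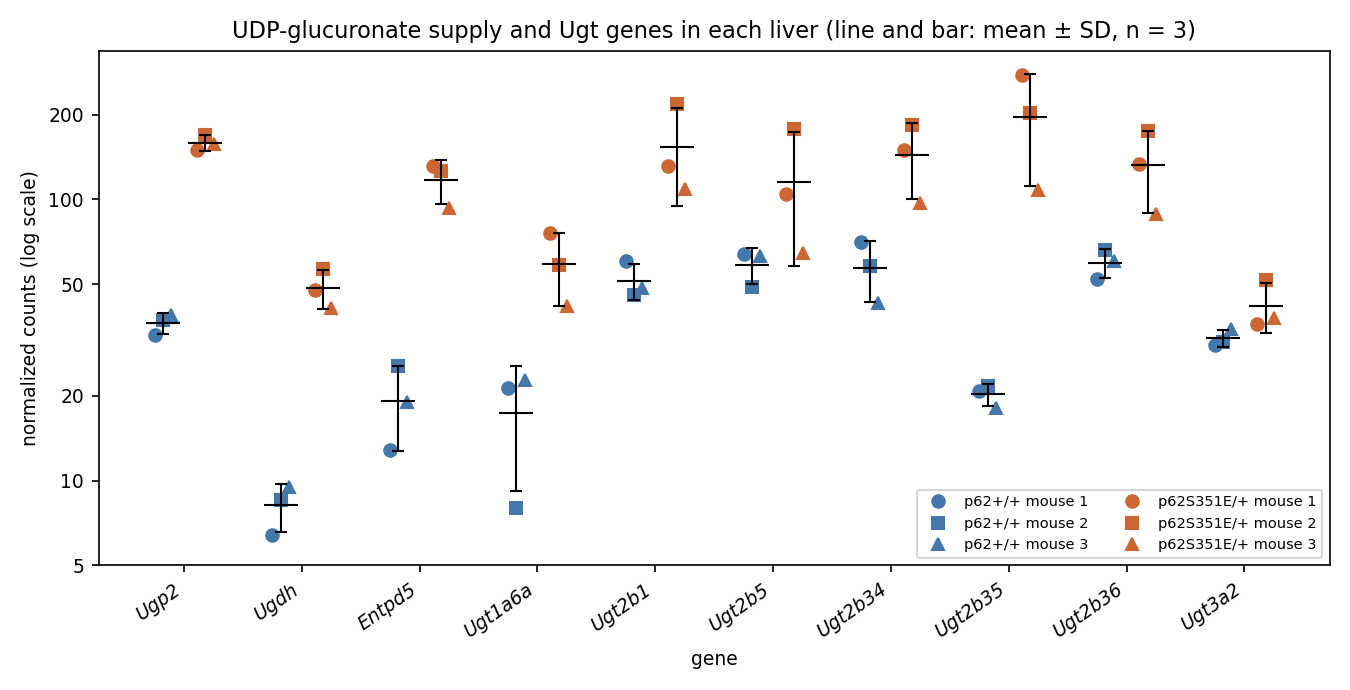
Normalized counts of the 10 genes in each liver on a log axis; blue symbols are the p62+/+ mice and orange symbols the p62S351E/+ mice, with the mouse number given by the shape, and the horizontal line and bar are the mean and SD (n = 3). In every gene the p62S351E/+ symbols lie above the p62+/+ symbols, by a wide gap in Ugp2, Ugdh, Entpd5 and Ugt2b35 and by a narrow one in Ugt2b5 and Ugt3a2.

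Ugp2 and Ugdh, which encode the consecutive enzymes from glucose 1-phosphate to UDP-glucuronate, rose together. Ugp2 (chromosome 11, 21321126 to 21371267, minus strand of GRCm38) had 32.9, 37.3 and 38.9 normalized counts in p62+/+ livers 1 to 3, against 150.4, 170.1 and 157 in p62S351E/+ livers 1 to 3. The p62S351E/+ values lay close together, and the lowest of them was far above the highest p62+/+ value. The means were 36.3 ± 3.09 and 159 ± 9.98 normalized counts (SD, n = 3 each), which edgeR put at a log2 fold change of 2.13 (SE, the standard error, 0.20, adjusted p = 0.00287, edgeR). Ugdh (chromosome 5, 65413207 to 65435842, minus strand) had only 8, 11 and 11 raw counts in p62+/+ livers, against 25, 45 and 53 in p62S351E/+ livers. On the normalized scale these are 6.42, 8.54 and 9.50 against 47.6, 56.7 and 41.1. The p62+/+ libraries alone would not have taken Ugdh past the filter on low counts. Despite the low counts the groups were well apart, with means of 8.15 ± 1.58 and 48.5 ± 7.85 normalized counts (SD, n = 3 each) and a log2 fold change of 2.55 (SE 0.27, adjusted p = 0.00602, edgeR). The ratio of Ugdh to Ugp2 within a library does not depend on the scaling. Ugdh made up 18.2 ± 1.70% of the summed counts of both genes in p62+/+ livers, against 23.2 ± 2.26% in p62S351E/+ livers (SD, n = 3 each). These groups did not overlap (exact two-sided permutation test, p = 0.1, the smallest possible).

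The sequence upstream of Ugdh is shown because NRF2 is known to bind the antioxidant response element, whose core was searched as TGACNNNGC on both strands in the RefSeq windows from 250 bases before to 50 bases after each gene's start (GRCm38.p6). In the stretch chr5:65435843-65436092, read on the strand of Ugdh, this core occurred at 2 places, in capitals, whose first bases lie 132 and 94 bases upstream of the start; the second is on the opposite strand, and its first 5 letters are also a GCGTG, the core of the AhR response element.
Ugdh: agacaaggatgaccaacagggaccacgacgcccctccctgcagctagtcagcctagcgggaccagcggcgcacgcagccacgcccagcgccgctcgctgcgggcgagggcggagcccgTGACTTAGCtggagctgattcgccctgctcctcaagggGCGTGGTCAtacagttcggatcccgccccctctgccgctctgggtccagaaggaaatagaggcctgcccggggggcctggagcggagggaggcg
Of 32851 such windows in the table, 12.4% held the core TGACNNNGC and 32.4% held GCGTG. Among the listed genes 9 of 10 had a window, and the core TGACNNNGC was found in that of Ugdh alone. Ugp2 and Entpd5, which rose as well, held GCGTG at 5 and 4 places, against 3 in Ugdh, and no TGACNNNGC in their windows. A match of letters is a description of the window and was not tested for binding.

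Entpd5 rose alongside the supply genes. This diphosphatase gene (chromosome 12, 84373875 to 84409029, minus strand) had 12.8, 25.6 and 19.001 normalized counts in p62+/+ livers 1 to 3, against 131, 126 and 93.0 in p62S351E/+ livers 1 to 3. No p62+/+ value came near the p62S351E/+ range. The log2 fold change was 2.60 (SE 0.30, adjusted p = 0.00728, edgeR), from 19.2 ± 6.39 to 117 ± 20.8 normalized counts (SD, n = 3 each). Without p62+/+ mouse 3 the call was lost (edgeR, adjusted p = 0.0597, with a range over all alternatives from 3.02e-06 to 0.149). Of the other luminal diphosphatases on the list, Entpd4 and Cant1 were tested and 0 were called, with log2 fold changes of 0.40 and 0.48. All values of Ugp2, Ugdh and Entpd5 were whole numbers, so RSEM had left no fraction of a read in these genes. Exons of Ugp2 overlap Gm12043 on the opposite strand and those of Ugdh overlap Gm43552 on the same strand, and whether the counting used strand is not stated.

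The Ugt1a genes lie in a single locus on chromosome 1, where the genes are known to differ in their first exons and to share the downstream exons. Bilirubin is conjugated by UGT1A1, and small planar phenols are typical substrates of UGT1A6. Because of the shared exons RSEM had to divide reads: 94.9% of the nonzero Ugt1a values were not whole numbers (37 of 39, tolerance 1e-06), against 6.45% over all genes. A single divided read can make a value non-whole, so the share of reads that were divided is not known. In GENCODE M21 transcripts, 100% of the 2223 windows of 75 bases, the read length, in the longest Ugt1a6a transcript also occur in transcripts annotated to Ugt1a7c, first exon included, so in this annotation Ugt1a6a has no stretch of a read's length to itself. The share was 57.7% for Ugt1a1, 75.4% for Ugt1a6b and 59.4% for Ugt1a9. The estimates of single Ugt1a genes are therefore uncertain, and antisense transcripts of Gm20528 overlap exons of this locus as well.

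Ugt1a6a (88134809 to 88220002, plus strand) had estimated counts of 26.7, 10.2 and 26.3 in p62+/+ livers, against 39.8, 46.5 and 54.0 in p62S351E/+ livers. Its normalized counts were 21.4, 7.96 and 22.7 against 75.8, 58.6 and 41.8, so the groups were apart but both spread widely. The log2 fold change of 1.76 (SE 0.41) missed the threshold (edgeR, adjusted p = 0.116), with a 95% interval from 0.81 to 2.70. Its share of the Ugt1a counts, 10.6 ± 5.22% in p62+/+ livers, against 13.5 ± 2.51% in p62S351E/+ livers (SD, n = 3 each), overlapped between the groups (exact permutation p = 0.5).
The sum over all Ugt1a genes does not depend on how reads were divided within the locus. It amounted to 141, 162 and 193 normalized counts in p62+/+ livers, against 465, 512 and 325 in p62S351E/+ livers, without overlap. The log2 fold change of the sum was 1.39 (SE 0.25), and its adjusted p of 0.0511 (edgeR) was just short of the threshold.

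Other genes of the locus moved in the same direction. Ugt1a1 had 90.98, 113 and 99.9 normalized counts in p62+/+ livers, against 215, 250.3 and 175 in p62S351E/+ livers (log2 fold change 1.07, SE 0.22, adjusted p = 0.0779, edgeR). Ugt1a6b, the neighbour of Ugt1a6a, was called higher (log2 fold change 1.71, SE 0.29, adjusted p = 0.0379, edgeR), but lost the call when 1 mouse was left out in 5 of 6 cases. Ugt1a9 was close to the counting limit in p62+/+ livers, with estimated counts of 1.49, 3.25 and 3.27, and had 19.2, 28.4 and 20.2 in p62S351E/+ livers. On summed counts of 8 against 68 and adjusted for library scale, that is a ratio of 12.0 (95% interval from 5.77 to 29.0, exact, counting error only). The interval covers neither the spread between mice nor the division of reads, and Ugt1a9 passed the filter on low counts only through the p62S351E/+ libraries. The fitted call for Ugt1a9 (log2 fold change 3.83, SE 0.52, adjusted p = 0.0123, edgeR) was lost in all fits without a p62+/+ mouse, with adjusted p between 0.0597 and 0.0859. It was also lost with limma-voom (adjusted p = 0.191), library size only, the hepatocyte-marker scale and the replicate block. In 12 of 21 alternatives it was kept.

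The Ugt2b genes stand in a row on chromosome 5 and encode enzymes for steroids, bile acids and many drugs. Among the 5 measured here, Ugt2b35 rose far more than its neighbours. Ugt2b35 (87000860 to 87013274, plus strand) had 26, 28 and 21 raw counts in p62+/+ livers, against 145, 161 and 140 in p62S351E/+ livers. Its normalized counts were 20.9, 21.7 and 18.1 against 276, 203 and 108. The p62+/+ livers were nearly alike, while the p62S351E/+ livers spread over a wide range far above them. The means were 20.2 ± 1.88 and 196 ± 84.1 normalized counts (SD, n = 3 each), and the log2 fold change of 3.26 was the largest of the 10 genes (SE 0.35, adjusted p = 0.00602, edgeR). Without p62+/+ mouse 2 the edgeR adjusted p was 0.052, just past the threshold and the highest over all alternatives, at a log2 fold change of 3.33. All Ugt2b35 counts were whole numbers, and 0 of the 3285 windows of 75 bases in its transcript occur in a transcript of another gene.

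The other Ugt2b genes were higher in p62S351E/+ livers without passing the threshold. Ugt2b1 (86916639 to 86926503, minus strand) had 60.2, 45.8 and 48.4 normalized counts in p62+/+ livers, against 131, 219 and 109 in p62S351E/+ livers. Its log2 fold change of 1.57 (SE 0.30) missed the threshold narrowly (adjusted p = 0.061, edgeR). DESeq2 and limma-voom called Ugt2b1, and over all alternatives its adjusted p ran from 0.000395 to 0.421. Ugt2b34 (86889770 to 86906937, minus strand) had 70.4, 58.0 and 42.8 normalized counts against 150.4, 183 and 97.4. The gap between its groups was smaller, and the log2 fold change was 1.32 (SE 0.30, adjusted p = 0.0993, edgeR).
Ugt2b36 (87065927 to 87092555, minus strand) had 52.2, 65.8 and 60.5 normalized counts against 133, 175 and 89.1, a log2 fold change of 1.15 (SE 0.28, adjusted p = 0.118, edgeR). Ugt2b5 (87124946 to 87140340, minus strand) had 64.1, 48.9 and 62.7 normalized counts against 105, 178 and 64.3. The groups of Ugt2b5 all but touched, since p62S351E/+ mouse 3 was next to the highest p62+/+ mouse. Its log2 fold change was 0.98 (SE 0.35, 95% interval from 0.17 to 1.79, adjusted p = 0.28, edgeR).

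The count of non-whole values followed sequence likeness only in part. Over all Ugt2b genes 48.6% of the nonzero values were not whole. Ugt2b5 had such values in 5 of 6 libraries, and 30.4% of its 75-base windows occur in another transcript, mostly of Ugt2b38, which itself had at most 3.23 counts. Ugt2b34 also had non-whole values in 5 of 6 libraries, although only 0.873% of its windows are shared, with Ugt2a3. Ugt2b36 had 1 such value, and Ugt2b1 and Ugt2b35 had 0. The sum of all Ugt2b genes does not depend on division among them, but it was not whole in 5 of 6 libraries, so some reads had been divided with genes outside the sum. It was 269, 241 and 237 normalized counts in p62+/+ livers, against 798, 962 and 468 in p62S351E/+ livers, with a log2 fold change of 1.58 (SE 0.29, adjusted p = 0.0523, edgeR).

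The make-up of the Ugt2b transcripts was compared within each library, which is free of the scaling. Ugt2b35 made up 7.77%, 9.01% and 7.65% of the Ugt2b counts in p62+/+ livers 1 to 3, against 34.6%, 21.1% and 23.2% in p62S351E/+ livers 1 to 3. Its log2 ratio to the other Ugt2b genes was higher by 1.98 in p62S351E/+ mice. The share of Ugt2b5 was lower, 15.1 ± 2.98% against 23.5 ± 3.11%, and so was that of Ugt2b36, 17.975 ± 1.17% against 24.1 ± 4.13% (SD, n = 3 each). In these 3 genes the groups did not overlap, with the smallest exact two-sided permutation p this design allows, 0.1 (0.225 adjusted over 9 ratios). Shares within a sum are tied to each other, so the lower share of Ugt2b5 and Ugt2b36 comes with the higher one of Ugt2b35. The share of Ugt2b5 also depends on how RSEM divided its reads. The shares of Ugt2b1 and Ugt2b34 overlapped (exact permutation p = 1 and p = 0.4), as did the ratio of all Ugt1a to all Ugt2b counts (exact permutation p = 0.7).

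**Figure D2:**
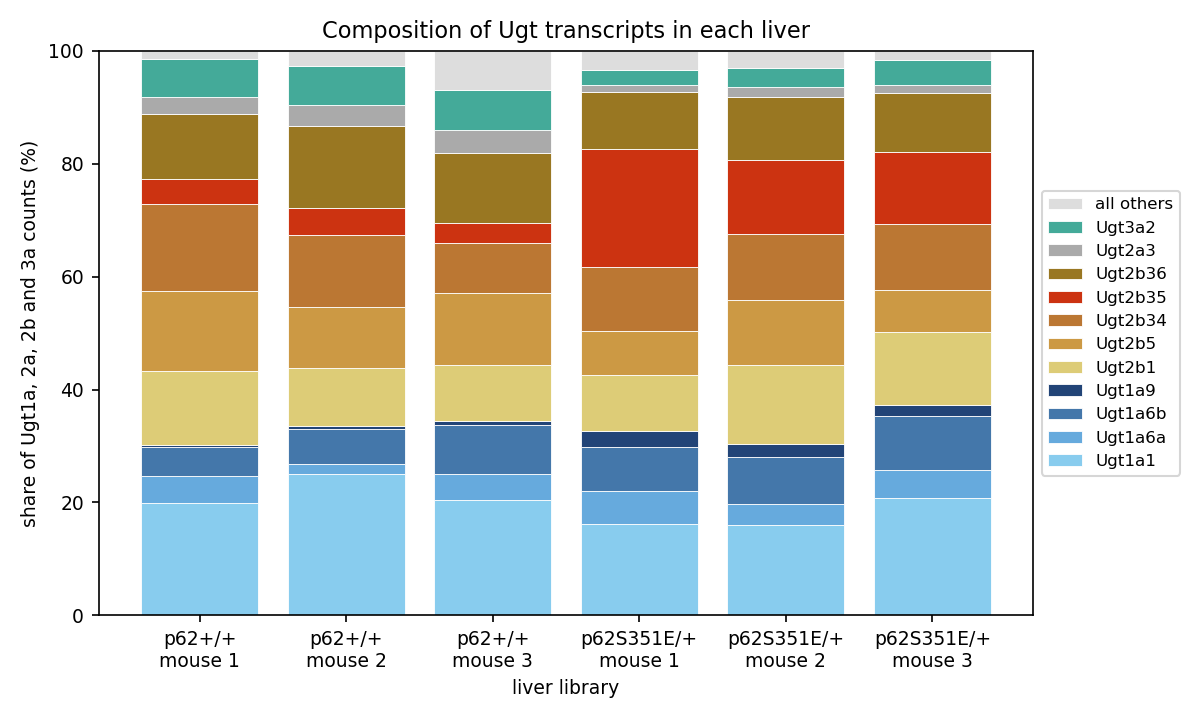
Share of each gene in the summed Ugt1a, Ugt2a, Ugt2b and Ugt3a counts of each liver, in percent, with 1 bar per library and genes of low counts pooled as all others. Ugt2b35 (red) takes between 3.71% and 4.803% in the p62+/+ livers and between 12.8% and 20.9% in the p62S351E/+ livers, while Ugt3a2 (green) takes 6.66% to 7.07% and 2.73% to 4.49%.

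The last 100 bases before the start of the 5 Ugt2b genes are shown because these neighbours differ in response. They are RefSeq promoter windows of GRCm38.p6, each read on the strand of its gene, at chr5:87000760-87000859 for Ugt2b35, chr5:87092556-87092655 for Ugt2b36, chr5:87140341-87140440 for Ugt2b5, chr5:86906938-86907037 for Ugt2b34 and chr5:86926504-86926603 for Ugt2b1. Capitals mark GTTA and TAAC with 5 bases between them, a palindrome chosen after these letters had been seen and the same on either strand.
Ugt2b35: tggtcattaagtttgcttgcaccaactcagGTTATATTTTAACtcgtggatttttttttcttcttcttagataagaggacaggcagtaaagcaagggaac
Ugt2b36: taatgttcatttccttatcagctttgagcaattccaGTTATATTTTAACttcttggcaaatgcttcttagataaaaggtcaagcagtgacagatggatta
Ugt2b5: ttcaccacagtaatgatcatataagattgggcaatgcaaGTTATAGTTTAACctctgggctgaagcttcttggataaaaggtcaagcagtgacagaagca
Ugt2b34: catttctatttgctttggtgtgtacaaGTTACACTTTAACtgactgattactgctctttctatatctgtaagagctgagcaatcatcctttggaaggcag
Ugt2b1: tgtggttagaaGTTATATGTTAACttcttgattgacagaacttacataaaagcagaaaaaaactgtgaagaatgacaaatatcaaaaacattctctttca
The pattern begins 70 bases upstream of the start in Ugt2b35, 64 in Ugt2b36, 61 in Ugt2b5, 73 in Ugt2b34 and 89 in Ugt2b1, and 0.332% of all promoter windows hold it. It was not found in the windows of Ugp2, Ugdh, Entpd5 and Ugt1a6a. Its letters are the same in Ugt2b35, with the largest log2 fold change, and in Ugt2b36, with one of the smaller ones. Over the aligned transcripts Ugt2b35 was 86.3% identical to Ugt2b5 and to Ugt2b36, but 69.8% to Ugt2b1 and 68.4% to Ugt2b34.

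Ugt3a2 differed least between the genotypes. Its enzyme family prefers other UDP-sugars to UDP-glucuronate. Ugt3a2 (chromosome 15, 9335551 to 9370955, plus strand) had 30.4, 31.1 and 34.5 normalized counts in p62+/+ livers, against 36.2, 51.7 and 37.9 in p62S351E/+ livers. The lowest p62S351E/+ value was just above the highest p62+/+ value. The log2 fold change of 0.39 (SE 0.23) was not significant (adjusted p = 0.455, edgeR), with a 95% interval from -0.14 to 0.92, and it was below 0 with library size alone (-0.27) and with the hepatocyte-marker scale (-0.22). Ugt3a1 had at most 5 counts in any library and was not tested.

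Levels can be compared between genes only per length, here as normalized counts per kilobase of the longest coding transcript in GENCODE M21. In p62+/+ livers Ugt2b5 (31.5 ± 4.54) and Ugt2b36 (31.5 ± 3.65) were the most abundant of the 10 genes on this scale (SD, n = 3), and they did not differ beyond their spread. Ugt2b1 (19.997 ± 2.98) followed, then Ugt3a2 (13.7 ± 0.953), Ugp2 (13.5 ± 1.15) and Ugt2b34 (13.2 ± 3.21), whose ranges overlapped. Ugt1a6a (7.55 ± 3.55), Ugt2b35 (6.03 ± 0.559), Entpd5 (3.85 ± 1.29) and Ugdh (3.20 ± 0.618) were lowest. In p62S351E/+ livers Ugt2b36 (70.2 ± 22.8), Ugt2b5 (62.3 ± 31.1), Ugt2b1 (59.6 ± 22.6), Ugp2 (59.4 ± 3.72) and Ugt2b35 (58.3 ± 25.0) per kilobase did not differ beyond their spread. Per kilobase, Ugt2b35 was the lowest of the 5 Ugt2b genes in every p62+/+ liver. Ugt1a1, which is not among the 10, had 45.6 ± 5.06 and 96.0 ± 16.9 normalized counts per kilobase.

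**Figure D3:**
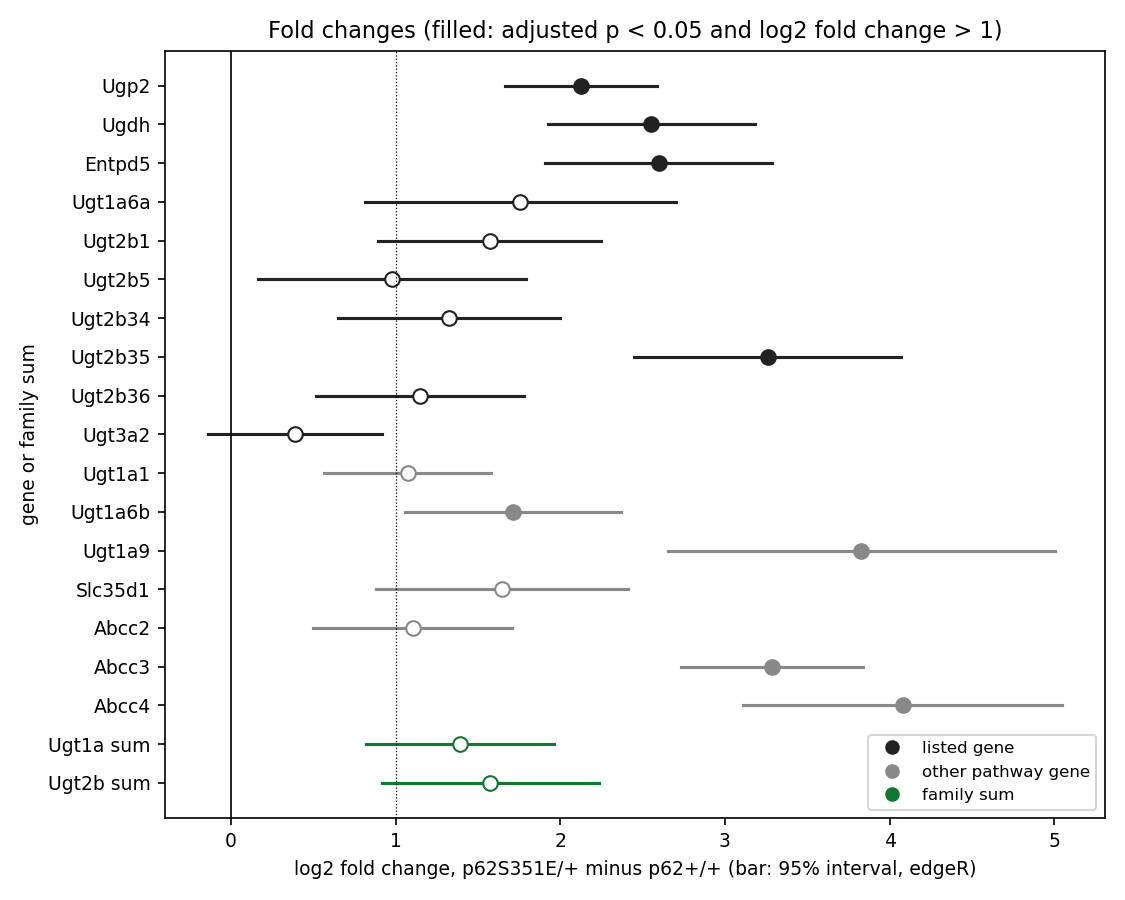
Log2 fold changes of p62S351E/+ against p62+/+ livers with 95% intervals from edgeR, for the 10 genes (black), other genes of the pathway (grey) and the sums over the Ugt1a and Ugt2b genes (green); filled points passed the threshold. Ugp2, Ugdh, Entpd5 and Ugt2b35 are filled, the other Ugt genes of the list lie between 0.39 and 1.76, and the interval of Ugt3a2 includes 0.

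The p62S351E/+ mice also varied among themselves. On the TMM scale mouse 3, the one with brain transcripts, had the lowest count of the 3 p62S351E/+ mice in 8 of the 10 genes. Mouse 1 was the lowest in the other 2. How often mouse 3 was the lowest over all genes tested was not counted. Against the p62+/+ mean, the log2 values in p62S351E/+ mice 1, 2 and 3 were 2.05, 2.23 and 2.11 for Ugp2 and 3.77, 3.33 and 2.42 for Ugt2b35. For Ugt2b5 they were 0.83, 1.61 and 0.13. The order of the mice depended on the scale. Per 10000 hepatocyte-marker counts, p62S351E/+ mice 1, 2 and 3 had 72.3, 52.8 and 105 for Ugp2. On that scale they had 133, 63.0 and 72.5 for Ugt2b35, and 50.2, 55.4 and 43.0 for Ugt2b5. Without mouse 3, 9 of the 10 genes were called higher, Ugt3a2 being the exception, while 5.21% of all genes tested were called higher in that fit. With only the libraries that hold brain transcripts, the 3 p62+/+ mice and p62S351E/+ mouse 3, the fit called 5 of the 10 genes and 0.949% of all genes tested higher, where the lone mouse is assumed to vary like the others. The log2 fold changes were then 2.12 for Ugp2, 2.33 for Ugdh, 2.28 for Entpd5, 2.42 for Ugt2b35 and 1.10 for Ugt2b1. In these brain-positive libraries the log2 fold changes of Ugt2b5, Ugt2b34 and Ugt2b36 were 0.14, 0.78 and 0.59, with 0 of the 3 called.

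With Xist as a covariate, edgeR called the same 4 genes, with log2 fold changes of 2.14 for Ugp2, 2.44 for Ugdh, 2.51 for Entpd5 and 2.71 for Ugt2b35, while 0.454% of all genes tested were called higher. The log2 fold change of Ugt2b5 was then 0.34, against 0.98 without the covariate, that of Ugt2b34 was 0.88, and Ugt1a6b lost its call (edgeR, adjusted p = 0.131). The labels do not give the sex of the mice. In p62S351E/+ mice 1, 2 and 3, Xist had 1, 0 and 1537 counts and the brain markers 3, 4 and 1372. Among these mice the covariate therefore cannot separate differences that go with Xist from those that go with brain transcripts.

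The scale mattered for the size of these values. On the TMM scale 9 of the 10 hepatocyte markers had log2 fold changes above 0, with a median of 0.64 and a range from -0.04 to 1.10, and 0 of them were called. With the summed hepatocyte markers as the scale, the median of all genes moved to -0.59, and with library size alone to -0.68. Ugt2b35 was the 1 gene of the 10 called under either scale, with log2 fold changes of 2.62 and 2.41. Under these scales 0.185% and 0.202% of all genes tested were called higher. On the hepatocyte-marker scale the log2 fold changes were 1.56 for Ugp2 (adjusted p = 0.117, edgeR), 1.94 for Ugdh (adjusted p = 0.115) and 1.98 for Entpd5 (adjusted p = 0.0837). Counted per 10000 hepatocyte-marker counts, Ugp2 had 22.3, 27.6 and 28.0 in p62+/+ livers, against 72.3, 52.8 and 105 in p62S351E/+ livers, again without overlap. The Ugt1a and Ugt2b sums had log2 fold changes of 0.75 and 0.90 with the hepatocyte-marker scale. Per 10000 hepatocyte-marker counts, Ugt2b36 had 35.4, 48.7 and 43.5 against 64.1, 54.4 and 59.5, and Ugt2b5 had 43.6, 36.2 and 45.1 against 50.2, 55.4 and 43.0. The part that a different share of hepatocyte RNA has in the smaller Ugt differences was not tested.

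**Figure D4:**
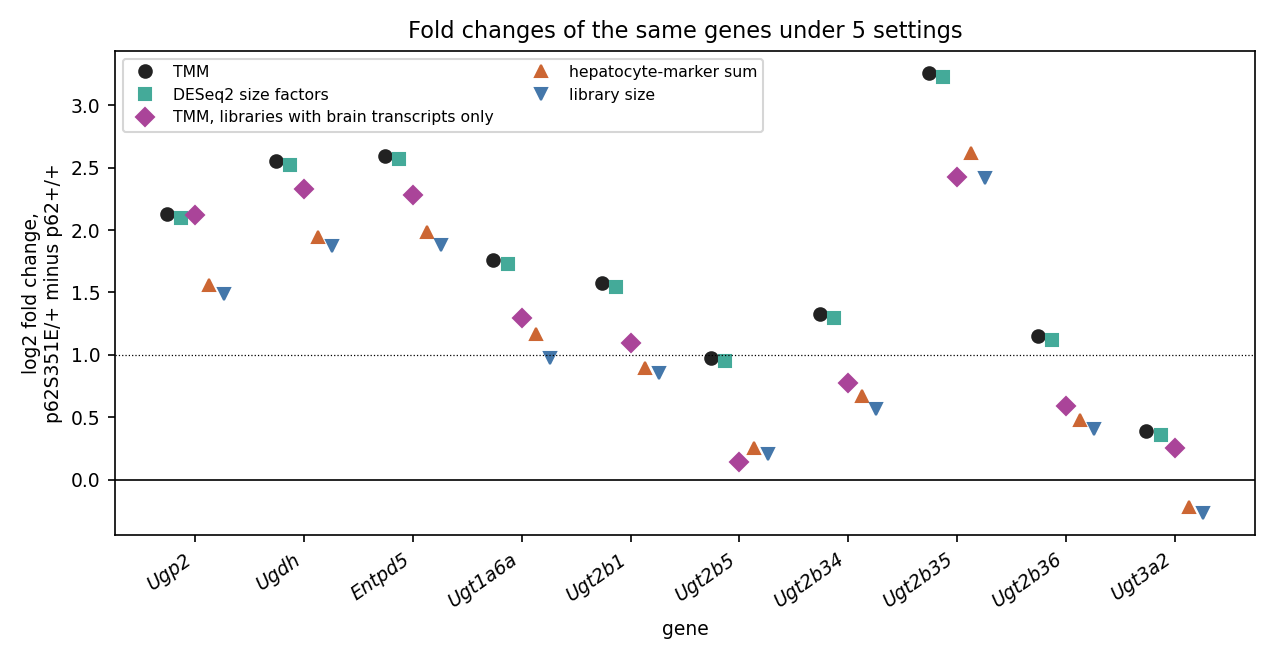
Log2 fold changes of the 10 genes under 5 settings: TMM, DESeq2 size factors, TMM in the libraries with brain transcripts only, the summed hepatocyte markers and library size alone as the scale. Ugp2, Ugdh, Entpd5 and Ugt2b35 stay above 1 in all 5, Ugt2b5, Ugt2b34 and Ugt2b36 are below 1 in at least 3, and Ugt3a2 falls below 0 in 2.

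Genes around the pathway were read from lists chosen with earlier results of these data known. Of the 9 UDP-sugar supply and transport genes, 6 were tested and 0 were called. Over all genes tested, groups without overlap occurred in 12.0% with p62S351E/+ on top and in 14.7% with p62S351E/+ below. Slc35d1, which carries UDP-glucuronate into the endoplasmic reticulum, had 11.2, 16.3 and 11.2 normalized counts in p62+/+ livers, against 59.0, 35.3 and 29.4 in p62S351E/+ livers, without overlap (log2 fold change 1.65, SE 0.33, adjusted p = 0.0771, edgeR). The phosphoglucomutase gene Pgm2 had a log2 fold change of 0.97 without overlap (adjusted p = 0.158), and Pgm1 at 6 counts or fewer was not tested.
Of the 10 other users of UDP-sugars 5 were tested and 0 called. Glycogen synthase Gys2 lay higher without overlap (log2 fold change 0.77). The ceramide glucosyltransferase gene Ugcg and the linker glucuronyltransferase gene B3gat3 lay lower without overlap (log2 fold changes -1.22 and -1.16), as did 14.7% of all genes tested. Adjusted p (edgeR) of Gys2, Ugcg and B3gat3 lay between 0.269 and 0.335. Ugcg had 19, 18 and 11 raw counts in p62+/+ libraries against 1, 3 and 12 in p62S351E/+ libraries. B3gat3 had 14, 16 and 15 against 2, 6 and 6. Both Ugcg and B3gat3 passed the filter on low counts only with the p62+/+ libraries. Of the glucuronate, xylulose and ascorbate genes 4 of the 7 in the table were tested and 0 called. Gulo and Rgn, which lead from glucuronate to ascorbate, had log2 fold changes of 0.10 and -0.22, and Dcxr was too low to be tested.

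Among the genes for cleavage and export of glucuronides 4 of 5 were tested and 2 were called higher, against 0.841% of all genes tested. Abcc3, the transporter that sends glucuronides to the blood, had 18.5, 23.3 and 23.3 normalized counts in p62+/+ livers, against 248, 215 and 175 in p62S351E/+ livers (log2 fold change 3.29, SE 0.24, adjusted p = 0.00051, edgeR). Abcc4, another exporter, had 4, 8 and 2 raw counts in p62+/+ libraries and 44, 44 and 74 in p62S351E/+ libraries. It was called higher (edgeR, adjusted p = 0.00509), but it passed the filter on low counts only through the p62S351E/+ libraries. Abcc2, the canalicular transporter, had a log2 fold change of 1.10 without overlap (adjusted p = 0.118), Abcg2 had at most 15 counts and was not tested, and the glucuronidase gene Gusb had a log2 fold change of 0.23 (adjusted p = 0.825). Of the 9 receptor and factor genes 9 were tested and 0 called. Nr1i3, the receptor CAR, whose counts were not whole in any library, had a log2 fold change of 1.63 (SE 0.40, adjusted p = 0.131, edgeR). Ahr, Hnf4a and Ppara had log2 fold changes of 0.96, 0.73 and 0.33. In these 4 genes p62S351E/+ lay on top without overlap, which occurred in 12.0% of all genes tested. Hnf4a is also 1 of the 10 hepatocyte markers, whose median log2 fold change was 0.64.

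Of the 14 other Ugt genes 5 were tested and 2, Ugt1a6b and Ugt1a9, were called higher, against 0.841% of all genes tested. Of these 2, Ugt1a9 passed the filter on low counts only through the p62S351E/+ libraries. Ugt2a3 had a log2 fold change of 0.13 (adjusted p = 0.889, edgeR). Ugt8a, the galactosyltransferase of myelin lipids, followed the brain transcripts. It had 22, 33 and 30 counts in the p62+/+ livers and 26 in p62S351E/+ mouse 3, but 0 in p62S351E/+ mice 1 and 2, the same libraries in which Snap25 had 0 counts. The remaining 9 Ugt genes were too low to be tested.

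By Pearson correlation of log2(normalized counts + 1) over the 6 mice, among 705 other genes with a mean of at least 50, the 5 genes most like Ugp2 were Abcc3 (0.994), Ces1g (0.992), Gstm1 (0.991), Hrg (0.990) and Ces1d (0.990). Those most like Ugt2b35 were Acox2 (0.991), Cyp2c29 (0.991), Hgd (0.989), Gnmt (0.989) and Gstm1 (0.986). Among the 10 genes the correlation was highest for Ugp2 with Ugdh (0.995) and lowest for Ugt1a6a with Ugt3a2 (0.671). These values rest on 6 livers of 2 genotypes, share the libraries' scaling, and describe only how the profiles run alongside each other.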

How the data were processed

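The authors trimmed 75-base single-end reads of rRNA-depleted liver RNA, mapped them to mm10 with STAR and deposited RSEM expected counts per gene symbol without normalization. Tool versions and the gene annotation are not given in the sources used here. Groups and replicate numbers came from the sample labels, and same-numbered mice are different animals. Expected counts were rounded and tested in R 4.3.3 with edgeR 4.0.16 (filterByExpr with a minimum count of 10, TMM, robust quasi-likelihood fit with legacy set to FALSE), adjusted by Benjamini-Hochberg over 5945 genes. Standard errors were obtained by dividing the size of each log2 fold change by the root of its F statistic. DESeq2 1.42.0 and limma 3.58.1 were alternatives. The edgeR test was checked on simulated counts. It recovered 98.5% of 200 genes changed by 2 on the log2 scale among 5227 fitted, with 7.08% false calls. The simulated counts had the same dispersion for every gene and no brain transcripts confined to some libraries. These shares therefore do not give the power or the false calls in the real livers. Intervals on counts cover counting error only. The edgeR p-values set each difference against a spread between mice that is estimated with information from all genes tested. Ratios within a library were compared by exact permutation of the mice. The rule named all 10 genes, pathway genes that were called or did not overlap, and the 5 nearest profiles. Some genes that the rule named are not reported here. These genes, lists and tests were chosen with earlier results of these data known. Positions are those of RefSeq on GRCm38.p6, the build of mm10.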

Additional observations from a re-analysis of the deposited data

How the results depend on the processing

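In every alternative in which they were tested, 9 of the 10 genes kept the direction of their log2 fold change. Ugdh was not tested with at least 10 counts in every library. The exception, Ugt3a2, reversed to -0.27 with library size only and to -0.22 with the hepatocyte-marker sum as the scale, an alternative chosen after the data had been seen. Of the 10 genes 4 were called higher, against 0.841% of all genes tested. That number was 8 with limma-voom (2.05% of all genes), 1 with library size only (0.202%) and 1 with the hepatocyte-marker scale (0.185%). With 1 mouse left out it ran from 3 to 9 (9 without p62S351E/+ mouse 3), while the share over all genes ran from 0.245% to 5.21%. The number called lower was 0 in each fit. The replicate block called the same number higher, 4, with 0.303% of all genes tested. Same-numbered mice did not deviate together (correlations of 0.0713, -0.0853 and 0.000353). With so few mice in each group these values cannot show whether same-numbered mice shared a litter or a batch.

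Over all genes 50 were higher and 5 lower. The higher number was 122 with limma-voom, 12 with library size only, 11 with the hepatocyte-marker scale, 79 with no filter, 18 at an adjusted p below 0.01, 18 with the replicate block and 27 with the Xist covariate, and ran from 16 to 333 with 1 mouse left out. The lower number was 8 with DESeq2, 13 with limma-voom, 8 with the legacy method, 2 with library size only, 10 with no filter, 29 with at least 10 counts in every library, 1 at an adjusted p below 0.01, 1 with the replicate block, 2 with the Xist covariate and 23 in brain-positive libraries, and ran from 1 to 975 with 1 mouse left out. Leaving out p62S351E/+ mouse 3 gave 333 and 975.

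The Ugt1a and Ugt2b sums, at log2 fold changes of 1.39 and 1.58, passed the threshold with DESeq2 (1.36 and 1.55), limma-voom (1.38 and 1.52), the legacy method (1.39 and 1.58), upper-quartile factors (1.37 and 1.56), Rn45s, Lars2 and Mir6236 removed (1.33 and 1.51), no filter (1.35 and 1.54) and at least 10 counts in every library (1.12 and 1.30). With 1 mouse left out they ran from 1.26 to 1.56 and from 1.36 to 1.82, and passed only without p62S351E/+ mouse 3. They did not pass with library size only (0.66 and 0.80), the hepatocyte-marker scale (0.75 and 0.90), brain-positive libraries (0.99 and 0.92, below the fold threshold), the Xist covariate (1.16 and 1.10) or the replicate block (1.38 and 1.52), nor with DESeq2 size factors in edgeR (1.36 and 1.55) or counts that were not rounded (1.39 and 1.58). The causes of these shifts were not tested.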
